A study of Mus musculus with 10 samples.

Results

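Collagen genes were examined in whole kidneys of mice in which deletion of Lkb1 was directed to the tubules, and of littermate controls. The set was every row of the deposited value table to which the platform annotation gives a single symbol of the form Col, number, a, number, such as Col1a1. This gave 42 genes, each with 1 row, among the 30140 genes that carry a single symbol. They comprise 11 fibrillar collagens, the 6 genes of basement membrane collagen type IV and 25 collagens of other types. The arrays came from 5 control and 5 knockout kidneys of mice aged 5 weeks, 1 array per mouse, labelled C57Bl/6N. Knockouts carried a floxed Lkb1 allele (gene symbol Stk11) together with KspCre, a Cre transgene under the promoter of the kidney cadherin gene Cdh16, so deletion was directed to tubular epithelium. Controls carried no Cre and had either Lkb1flox/+ or Lkb1flox/flox genotype, and the floxed stock was of mixed genetic background. Both groups therefore carried a floxed allele, and an effect of the Cre transgene and an effect of Lkb1 loss cannot be told apart. The sample titles call the knockouts a knockdown, and the series' design text speaks of MDCK cells, whereas all 10 samples are labelled mouse kidney.

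Collagens are trimers of chains wound into a triple helix, which needs glycine at every helical position facing the core. Fibrillar collagens, above all types I and III, form the cross-striated fibres of the interstitium, and in the kidney they are made mainly by fibroblasts and pericytes. Type IV collagen forms the sheet-like network of basement membranes. Its alpha1 and alpha2 chains assemble together and are widespread, whereas alpha3, alpha4 and alpha5 chains form the network of the mature glomerular basement membrane and of some tubular segments. Other types coat fibrils, form microfibrils, or link basement membranes to the interstitium.

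For 33 of the 42 genes a promoter window was found in the RefSeq table (GRCm38.p6). The 250 bases before the listed start are shown for Col1a2, Col3a1 and Col6a1, which had the smallest adjusted p among collagen genes with a window. Capitals mark the letters CCAAT, or ATTGG on the other strand.
Col1a2, chr6:4505368-4505617, plus strand: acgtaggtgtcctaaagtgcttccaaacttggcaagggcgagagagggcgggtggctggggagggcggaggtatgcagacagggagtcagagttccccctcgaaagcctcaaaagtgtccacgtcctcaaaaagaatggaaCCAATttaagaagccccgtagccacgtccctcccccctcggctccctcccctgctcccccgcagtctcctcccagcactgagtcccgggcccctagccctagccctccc
Col3a1, chr1:45311288-45311537, plus strand: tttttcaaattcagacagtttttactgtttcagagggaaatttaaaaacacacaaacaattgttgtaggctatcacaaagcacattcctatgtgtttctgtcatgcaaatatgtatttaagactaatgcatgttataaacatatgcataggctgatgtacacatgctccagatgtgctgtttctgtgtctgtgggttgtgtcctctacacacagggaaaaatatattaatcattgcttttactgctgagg
Col6a1, chr10:76726045-76726294, minus strand: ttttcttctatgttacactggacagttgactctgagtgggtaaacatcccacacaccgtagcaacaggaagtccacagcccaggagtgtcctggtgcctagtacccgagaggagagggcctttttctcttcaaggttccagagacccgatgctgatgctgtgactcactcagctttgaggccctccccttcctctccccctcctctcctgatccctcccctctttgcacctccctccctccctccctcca
The Col1a2 window held 1 match and the windows of Col3a1 and Col6a1 held 0. Over both strands, CCAAT was present in 4 of 10 windows of collagen genes that were higher in knockouts (8 genes), in 7 of 25 windows of collagen genes without a call, and in 33.8% of all 32851 windows in the table. The letters GGGCGG were present in 5 of 10, 15 of 25 and 32.7% of windows, and TATAAA in 1 of 10, 4 of 25 and 12.4%. Matches of these motifs can share letters at their ends. These counts describe letters in the window and say nothing of binding.

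Levels are RMA values on the log2 scale. A difference is the knockout mean less the control mean on that scale, given with its standard error (SE). Levels of different genes come from different probes and are not set against each other. Any pair of arrays correlated at 0.992 to 0.998 across genes. A gene's signal is placed against 5222 negative control probe sets of the same arrays, whose array medians were 5.10 to 5.37. Of the 42 collagen genes, 41 had a mean above the average of these medians, and Col10a1, a collagen of growth plate cartilage, did not. That is a low bar, because the 95th percentile of the negative controls was 7.94 to 8.07 on the arrays. Col19a1, Col28a1, Col25a1, Col11a1, Col6a5 and Col9a1 were also dim. In control kidneys they lay above 54.6%, 60.7%, 62.7%, 63.1%, 63.1% and 67.4% of the negative controls, so their differences are uncertain. The tissue label was borne out by kidney tubule markers, with Umod and Slc34a1 above at least 99.7% of the negative controls in both groups. Stk11 measured 9.43, 9.40, 9.48, 9.46 and 9.40 in controls 1 to 5 and 9.12, 9.21, 9.07, 9.21 and 9.31 in knockouts 1 to 5. Every knockout was below every control (log2 difference -0.25, SE 0.05, limma adjusted p = 0.00749, two-sided exact permutation p = 0.00794, the smallest that 5 against 5 allows). The fitted level in knockouts was 84.1% of control, still above 98.2% of the negative controls.

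Knockout kidneys had higher levels of 12 collagen genes, a lower level of 1, and 29 did not pass the test. The increases took in the major interstitial chains Col1a1, Col1a2 and Col3a1, the ubiquitous type IV chains Col4a1 and Col4a2, the type VI chains Col6a1 and Col6a2, and Col5a2, Col12a1, Col14a1, Col15a1 and Col18a1. The decrease was in Col4a4. Calls are limma adjusted p under 0.05 over all 30140 genes, of which 5.36% were higher and 2.67% lower in knockouts (7.81% and 3.52% of the 19509 genes above the negative control median). In the same 12 genes the lowest knockout exceeded the highest control, as in 5.07% of all genes, and in Col4a4 the highest knockout was below the lowest control, as in 3.5% of all genes. A call together with a fitted increase of at least 1.5-fold was found for 7 collagen genes (1.04% of all genes). With a fitted increase of at least 2-fold there were 3 (0.302%), namely Col3a1, Col1a1 and Col1a2. No test was made against 1.5-fold or 2-fold, and the 95% intervals of these 3 genes began at 1.91, 1.89 and 1.71-fold. The median difference over the 42 genes was 0.00, with a range from -0.30 to 1.28, beside a median of -0.03 over all genes. Every one of the 12 calls and that of Col4a4 held in each of 18 alternative fits, including each fit that left out 1 kidney. In whole-kidney RNA, a change in the number of cells of a type and a change in RNA per cell cannot be told apart.

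**Figure D1:**
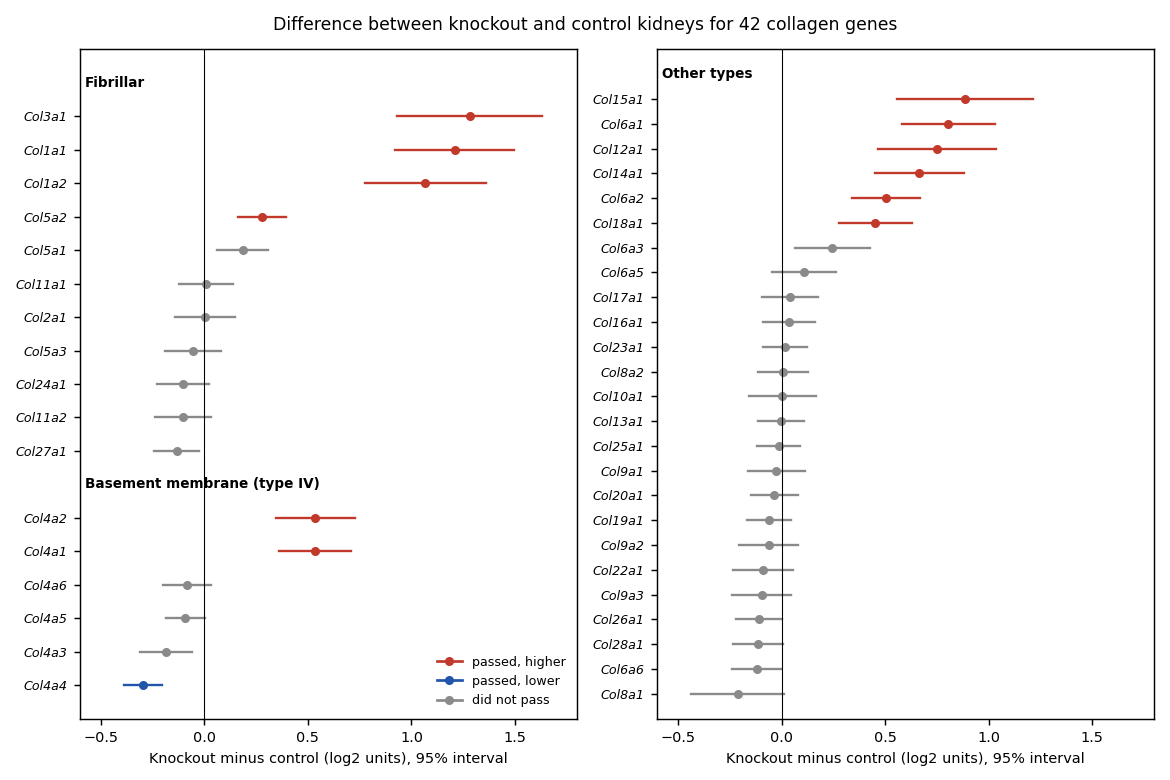
Difference between knockout and control kidneys (log2 units, horizontal axis) for each of the 42 collagen genes, grouped as fibrillar, basement membrane and other types. Points are fitted differences and lines 95% intervals (5 against 5 kidneys), red where limma's adjusted p passed with a higher level, blue with a lower level and grey where it did not pass. The largest differences are those of Col3a1 (1.28), Col1a1 (1.21) and Col1a2 (1.07), and the sole blue point is Col4a4 (-0.30).

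Of the 11 fibrillar collagens, 4 were higher in knockouts (Col1a1, Col1a2, Col3a1 and Col5a2), 0 were lower by limma and 7 did not pass. The median difference was 0.01. Over all genes 5.36% were higher and 2.67% lower. Without the adjustment, 6 of the 11 had p under 0.05, as did 23% of all genes. These 6 were the 4 called genes, Col5a1 (higher, 0.18) and Col27a1 (lower, -0.13). Col3a1, the single chain of type III collagen, lies on chromosome 1 at 45311538 to 45349706 (mm10). It measured 8.02, 8.09, 8.27, 8.05 and 7.87 in controls 1 to 5 and 9.36, 9.75, 9.73, 8.97 and 8.87 in knockouts 1 to 5. Knockouts 2 and 3 were highest and 4 and 5 lowest, all above the controls. The increase was 2.43-fold (95% interval 1.91 to 3.09, log2 difference 1.28, SE 0.16, limma adjusted p = 0.000701).

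Type I collagen, the most abundant fibre protein of connective tissue, is a trimer of 2 chains from Col1a1 and 1 from Col1a2, and both genes rose. Col1a1 (chromosome 11, 94936224 to 94953042) measured 8.61, 8.57, 8.70, 8.47 and 8.32 in controls and 9.80, 10.09, 10.02, 9.38 and 9.42 in knockouts, a 2.31-fold increase (95% interval 1.89 to 2.82, SE 0.13 in log2 units, limma adjusted p = 0.000328). Col1a2 (chromosome 6, 4505618 to 4541543) measured 8.67, 8.65, 8.72, 8.60 and 8.33 in controls and 9.70, 10.03, 9.93, 9.40 and 9.25 in knockouts, a 2.10-fold increase (95% interval 1.71 to 2.57, SE 0.14, limma adjusted p = 0.000746). The groups were separate for both genes, and control 5 was the lowest control in both.

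Type V collagen, which sits inside type I fibrils and limits their diameter, changed less. Col5a2 measured 7.31, 7.27, 7.26, 7.10 and 7.21 in controls and 7.51, 7.59, 7.54, 7.53 and 7.37 in knockouts. It rose 1.21-fold (95% interval 1.12 to 1.31, SE 0.05 in log2 units, limma adjusted p = 0.00717), and the lowest knockout lay just above the highest control. Col5a2 is the neighbour of Col3a1 on chromosome 1, with 24.6 kilobases between the annotated genes. Col5a1, whose chain assembles with that of Col5a2, had the smallest p among collagen genes without a call. It measured 7.16, 6.99, 7.21, 7.04 and 7.07 in controls and 7.35, 7.25, 7.39, 7.24 and 7.15 in knockouts, and the groups overlapped. Its difference was 0.18 (SE 0.06, 95% interval 0.06 to 0.31, limma adjusted p = 0.0690), and it passed in 6 of 18 alternative fits, among them the fit without knockout 5 (adjusted p = 0.0285). The remaining type V gene, Col5a3, differed by -0.05 (95% interval -0.19 to 0.08).

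The fibrillar collagens best known from cartilage did not pass. Col2a1 differed by 0.00 (95% interval -0.14 to 0.15), Col11a1 by 0.01 (-0.12 to 0.14) and Col11a2 by -0.10 (-0.24 to 0.03). Col24a1 differed by -0.10 (-0.23 to 0.02) and Col27a1 by -0.13 (-0.24 to -0.02, limma adjusted p = 0.132). In array signal, the intervals for these 5 genes leave out increases of the size seen in Col1a1, Col1a2 and Col3a1. Col11a1 and Col24a1 were dim, above 63.1% and 70.7% of the negative controls in control kidneys, so their differences are uncertain. Cartilage and bone markers (Acan, Matn1, Ibsp, Bglap and Sp7) gave 0 calls among 5 genes by limma, with 0 at an unadjusted p under 0.05, beside 8.03% and 23% of all genes, so that so short a list says little.

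**Figure D2:**
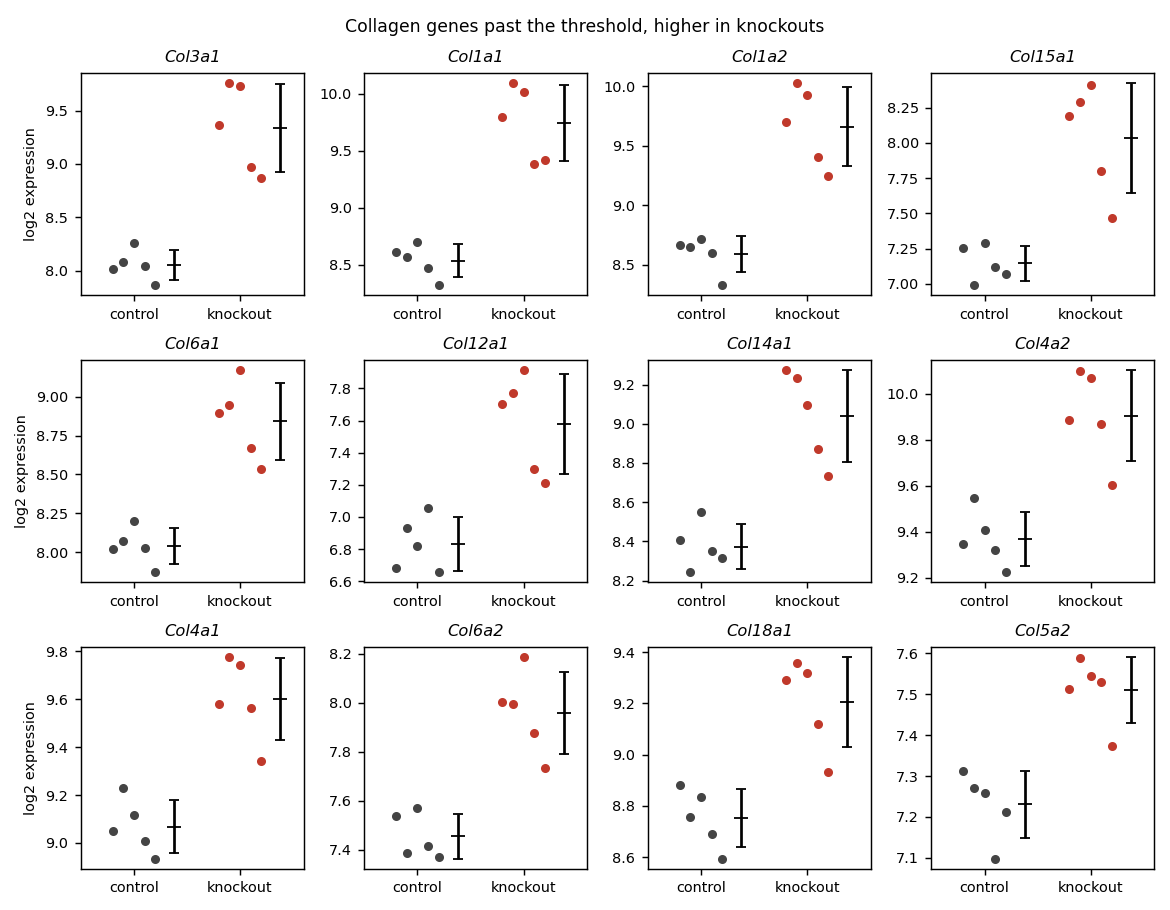
Log2 expression (vertical axis, its own range in each panel) of the 12 collagen genes called higher, in 5 control (grey) and 5 knockout (red) kidneys, plotted from replicate 1 on the left to replicate 5 on the right. Bars are the group mean with its SD. In every panel the lowest knockout lies above the highest control, for example at 8.87 against 8.27 in Col3a1 and at 7.37 against 7.31 in Col5a2.

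Type IV genes did not move as a group. Of 6, 2 were called higher (5.36% of all genes), 1 lower (2.67%), and 3 did not pass. The median difference was -0.09. The genes lie in 3 neighbouring pairs, each read in opposite directions from a shared region in mammals. The pair Col4a1 and Col4a2 was higher, the pair Col4a3 and Col4a4 was lower in 1 member, and the pair Col4a5 and Col4a6 had no call. These calls were tested gene by gene, and the difference between pairs was not tested.

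Col4a1 and Col4a2 lie on chromosome 8 at 11198423 to 11312889 and 11312805 to 11449287. Their listed starts are 21 bases apart, on opposite strands. The Col4a1 start lies inside Col4a2, so the listed transcripts overlap between the starts. This stretch is shown on the Col4a2 strand with capitals running from the Col4a2 start to the Col4a1 start.
Col4a1/Col4a2, chr8:11312801-11312830, plus strand: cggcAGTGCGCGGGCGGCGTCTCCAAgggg
Col4a1 measured 9.05, 9.23, 9.12, 9.01 and 8.93 in controls and 9.58, 9.78, 9.74, 9.56 and 9.34 in knockouts, a 1.45-fold increase (95% interval 1.28 to 1.63, SE 0.08 in log2 units, limma adjusted p = 0.00198). Col4a2 measured 9.35, 9.55, 9.41, 9.32 and 9.22 in controls and 9.88, 10.10, 10.07, 9.87 and 9.61 in knockouts, also a 1.45-fold increase (1.27 to 1.66, SE 0.09, adjusted p = 0.00346). The knockouts fell in the same order for both genes (2, 3, 1, 4, 5), and control 2 was the highest control in both.

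Col4a3 and Col4a4 encode chains of the mature glomerular basement membrane, and lie on chromosome 1 at 82586921 to 82722059 and 82448419 to 82587034. The listed start of Col4a4 is 72 bases from the annotated start of Col4a3. Col4a4 measured 9.33, 9.51, 9.37, 9.37 and 9.39 in controls and 9.10, 9.15, 9.04, 9.09 and 9.11 in knockouts. All knockouts lay below all controls, with a control to knockout ratio of 1.23 (95% interval 1.15 to 1.31, log2 difference -0.30, SE 0.04, limma adjusted p = 0.00138). Col4a3 measured 9.63, 9.95, 9.81, 9.76 and 9.93 in controls and 9.62, 9.69, 9.60, 9.66 and 9.59 in knockouts. Its groups overlapped through control 1, and the difference of -0.18 did not pass (SE 0.06, 95% interval -0.31 to -0.06, adjusted p = 0.0730). Without control 1 it was -0.23 with adjusted p = 0.0187. It also passed after quantile normalisation (-0.21, adjusted p = 0.0250) and with array weights (-0.19, adjusted p = 0.0435).

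Col4a5, whose chain joins those of Col4a3 and Col4a4 in the glomerulus, and Col4a6, found in Bowman's capsule and some tubular basement membranes, lie 1.3 kilobases apart by their listed starts on chromosome X. Col4a5 measured 7.47, 7.60, 7.52, 7.54 and 7.45 in controls and 7.38, 7.47, 7.38, 7.49 and 7.41 in knockouts (difference -0.09, 95% interval -0.18 to 0.00, limma adjusted p = 0.227). Col4a6 measured 5.67, 5.61, 5.73, 5.79 and 5.59 in controls and 5.68, 5.55, 5.63, 5.62 and 5.49 in knockouts (difference -0.08, 95% interval -0.20 to 0.03, adjusted p = 0.384). The groups overlapped for both, and the signal of Col4a6 was dim, above 60.5% of the negative controls in control kidneys. Among 4 measured podocyte markers, which belong to the cells that make the glomerular network, limma called 0 in either direction (0 at an unadjusted p under 0.05), beside 8.03% and 23% of all genes, so that this list too says little. Their mean level was 7.998 to 8.111 in controls and 8.004 to 8.137 in knockouts.

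**Figure D3:**
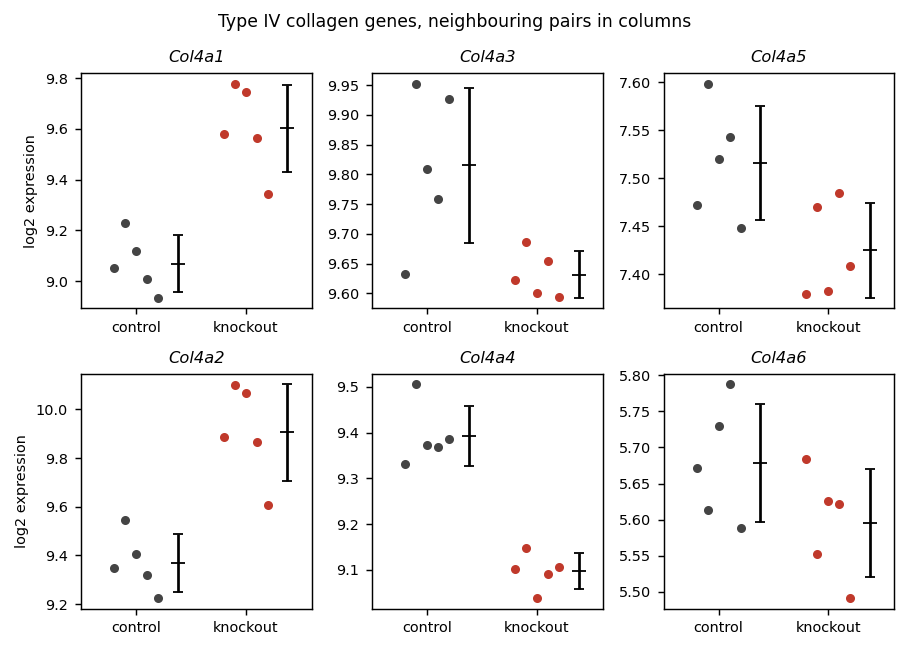
Log2 expression (vertical axis, its own range in each panel) of the 6 type IV collagen genes in 5 control (grey) and 5 knockout (red) kidneys, with each neighbouring pair in a column and bars for mean and SD. Knockouts lie above controls for Col4a1 and Col4a2 and below them for Col4a4, while the groups overlap for Col4a3, Col4a5 and Col4a6.

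Collagens of other types were higher in 6 of 25 cases and lower in 0, with 19 that did not pass and a median difference of 0.00. These counts, and those of the families below, stand beside 5.36% higher and 2.67% lower over all genes. The 6 increases belonged to 3 families, namely type VI microfibrils, fibril-associated collagens and multiplexins.

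Type VI collagen forms beaded microfibrils around cells, from trimers of the chains of Col6a1, Col6a2 and either Col6a3 or a related chain. Col6a1 measured 8.02, 8.07, 8.20, 8.03 and 7.87 in controls and 8.89, 8.95, 9.17, 8.67 and 8.54 in knockouts, a 1.75-fold increase (95% interval 1.50 to 2.04, SE 0.10 in log2 units, limma adjusted p = 0.000804). Col6a2 measured 7.54, 7.39, 7.57, 7.41 and 7.37 in controls and 8.002, 7.997, 8.19, 7.88 and 7.73 in knockouts, a 1.42-fold increase (1.27 to 1.59, SE 0.08, adjusted p = 0.00202). The groups were separate for both, and knockout 3 was highest. Col6a3 measured 7.36, 7.27, 7.47, 7.31 and 7.14 in controls and 7.71, 7.65, 7.68, 7.44 and 7.31 in knockouts. Its groups overlapped in knockouts 4 and 5, and the difference of 0.25 did not pass (SE 0.08, 95% interval 0.07 to 0.43, adjusted p = 0.0922), and it passed in 2 of 18 alternative fits, among them the fit without knockout 5 (0.31, adjusted p = 0.0185). Col6a5 (0.11, 95% interval -0.05 to 0.27) and Col6a6 (-0.12, adjusted p = 0.206) did not pass. Col6a2 and Col6a1 lie 85.2 kilobases apart on chromosome 10, and Col18a1, which was also higher, follows 326.1 kilobases beyond Col6a1.

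Among fibril-associated collagens, types XII and XIV attach to the surface of type I fibrils. Of 9 measured members of this family, Col12a1 and Col14a1 rose and 7 did not pass. Col12a1 measured 6.68, 6.93, 6.82, 7.06 and 6.66 in controls and 7.71, 7.77, 7.91, 7.30 and 7.21 in knockouts, a 1.68-fold increase (95% interval 1.38 to 2.05, SE 0.13 in log2 units, limma adjusted p = 0.00460). Col14a1 measured 8.41, 8.25, 8.55, 8.35 and 8.32 in controls and 9.27, 9.23, 9.09, 8.87 and 8.73 in knockouts, a 1.59-fold increase (1.37 to 1.84, SE 0.10, adjusted p = 0.00182). Both genes encode fibril-coating chains of dense connective tissue, and their groups did not overlap. Col16a1 (0.04), Col9a1 (-0.03), Col20a1 (-0.03), Col19a1 (-0.06), Col9a2 (-0.06), Col22a1 (-0.09) and Col9a3 (-0.10) had 95% intervals that included 0.

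Multiplexins are collagens of the basement membrane zone whose C-terminal fragments are released as restin and endostatin, and both measured members rose. Col15a1 measured 7.26, 6.99, 7.29, 7.12 and 7.07 in controls and 8.19, 8.29, 8.41, 7.80 and 7.47 in knockouts, a 1.85-fold increase (95% interval 1.47 to 2.32, SE 0.15 in log2 units, limma adjusted p = 0.00407). Col18a1, the source of endostatin, measured 8.88, 8.76, 8.83, 8.69 and 8.59 in controls and 9.29, 9.36, 9.32, 9.12 and 8.93 in knockouts, a 1.37-fold increase (1.21 to 1.55, SE 0.08, adjusted p = 0.00555). Knockout 5 was the lowest knockout in both, at 7.47 for Col15a1 against a highest control of 7.29.

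The remaining families, with 9 genes, had 0 calls by limma and 0 at an unadjusted p under 0.05, beside 8.03% and 23% of all genes. Among short-chain network collagens, Col8a1 differed by -0.21 (95% interval -0.44 to 0.01), Col8a2 by 0.01 (-0.11 to 0.13) and the dim Col10a1 by 0.00 (-0.16 to 0.17). The transmembrane collagens Col13a1, Col17a1, Col23a1 and Col25a1 differed by -0.01 to 0.04. Col26a1 (-0.11) and Col28a1 (-0.11) completed the set. Genes without a call shared a pattern over arrays that did not follow the groups. Over these 29 collagen genes without a call, control 3 was the highest control in 22 and control 2 the lowest in 20, whereas over all 27720 genes without a call these shares were 24.2% and 31%. Control 3 also had the lowest median of the negative controls (5.10) and control 2 the highest (5.37). A fit with that median as a covariate called 13 collagen genes higher, the same 12 and Col5a1, and 1 lower.

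The 12 increases differed in size between knockout kidneys in a similar order. Knockouts 4 and 5 had the lowest values in 11 of the 12 genes, the exception being Col5a2, against 44.6% of the 1614 genes called higher. Knockout 5 was lowest in 11 of 12, the exception being Col1a1, against 56.1% of the genes called higher. The full order 2, 3, 1, 4, 5 was seen in 5 genes (Col1a2, Col3a1, Col4a1, Col4a2 and Col18a1). The SD was larger in knockouts than in controls for 11 of the 12, against 63.3% of all genes called higher. The mean level of the 12 genes was 8.93, 9.08, 9.09, 8.70 and 8.54 in knockouts 1 to 5 and 7.98 to 8.23 in controls. This order was described after the values were seen, and no test was made of it.

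**Figure D4:**
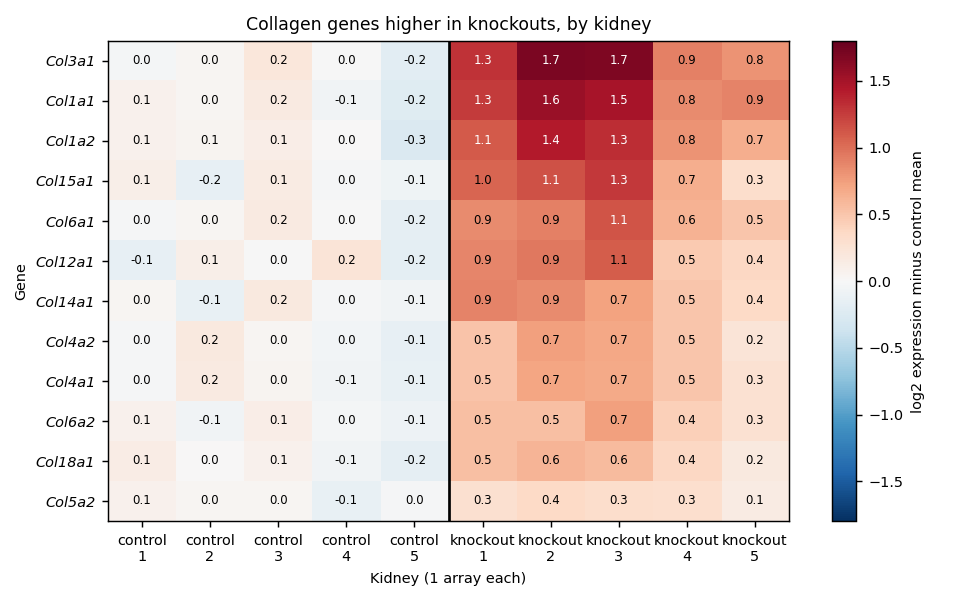
Log2 expression minus the control mean of the gene (colour and printed value) for the 12 collagen genes called higher (rows, ordered by difference) in each of the 10 kidneys (columns, controls left of the line). Knockouts 1 to 3 are darker than knockouts 4 and 5 in all rows except Col5a2, and knockout 5 is palest in 11 rows.

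A list of 31 genes that modify, fold and process collagen had 27 that were measured. Of the 27, 3 rose (5.36% of all genes), 2 fell (2.67%) and 22 did not pass (median difference 0.03). At an unadjusted p under 0.05 there were 13 of the 27, beside 23% of all genes. The increases were in the crosslinking enzymes Lox and Loxl1, and in Bmp1, the protease that trims procollagen at its C-terminus. Lox measured 8.14, 8.59, 8.08, 8.0025 and 7.59 in controls and 9.04, 9.64, 9.82, 9.29 and 8.27 in knockouts (log2 difference 1.13, SE 0.26, limma adjusted p = 0.0176). Knockout 5 lay within the control range, and the call was narrowly lost without knockout 2 (adjusted p = 0.0504). Loxl1 was separate between groups, at 7.47 to 7.69 in controls and 8.002 to 8.71 in knockouts (1.76-fold, SE 0.11 in log2 units, adjusted p = 0.00103). Bmp1 was also separate, at 7.41 to 7.64 and 7.73 to 8.13 (1.35-fold, adjusted p = 0.00351).

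Colgalt2, which adds galactose to hydroxylysine of collagen, fell by 0.51 (SE 0.07, limma adjusted p = 0.00131), from 7.43 to 7.68 in controls down to 6.89 to 7.23 in knockouts. P3h2, a prolyl 3-hydroxylase that acts on type IV collagen, fell by 0.31 (adjusted p = 0.0119). The collagen chaperone gene Serpinh1 (0.12), the prolyl 4-hydroxylase genes P4ha1 (-0.07) and P4hb (0.02), and the procollagen enhancer gene Pcolce (-0.01) did not pass. Without knockout 5 the list had 5 genes called higher. Plod3, Fkbp10, Adamts2 and Loxl2 were not measured apart.

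Among collagen receptors and uptake genes, 4 of 12 measured rose, 0 fell and 8 did not pass (median difference 0.18). The shares over all genes were 5.36% higher and 2.67% lower. Ddr2, a receptor tyrosine kinase for fibrillar collagen, measured 7.15 to 7.63 in controls and 7.83 to 8.68 in knockouts (1.82-fold, SE 0.14 in log2 units, limma adjusted p = 0.00281). Mrc2, an endocytic receptor that takes up collagen, rose 1.58-fold (adjusted p = 0.00264) and Adgrg6, an adhesion receptor for type IV collagen, rose 1.57-fold (adjusted p = 0.0107). Lair1, an inhibitory collagen receptor of leukocytes, was at least 1.37-fold higher (adjusted p = 0.0206). That value is a bound, because its control mean was below the median of the negative controls, which replaced lower values. Its call was lost in 3 of 10 fits that left out 1 kidney (control 3, knockout 1 or knockout 2, adjusted p = 0.0503 to 0.0537). Ddr1 (0.01) and the common integrin chain gene Itgb1 (0.13) did not pass, and Itga1 was not measured apart.

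Genes for collagen breakdown changed in 4 of 8 cases, 3 higher and 1 lower, beside 5.36% higher and 2.67% lower over all genes. Mmp2, a gelatinase, measured 6.97 to 7.38 in controls and 7.69 to 9.11 in knockouts (2.41-fold, SE 0.20 in log2 units, limma adjusted p = 0.00299). Mmp14, a membrane collagenase that activates Mmp2, measured 7.92 to 8.21 and 8.57 to 9.58 (2.09-fold, adjusted p = 0.00157), and Ctsk, a lysosomal collagenase, rose 1.69-fold (adjusted p = 0.00737). The groups did not overlap for these 3 genes. Pepd, which recycles proline from collagen peptides, fell by 0.30 (adjusted p = 0.0345), with overlapping groups, and this call was lost in 8 of 10 fits that left out 1 kidney (adjusted p = 0.0521 to 0.0783 without any of controls 1, 2, 3 and 5 or knockouts 1 to 4). Mmp8, Mmp9, Mmp13 and Fap did not pass. In control kidneys Mmp8, Mmp13 and Fap were dim, above 27.7%, 50.7% and 25.9% of the negative controls, so their differences are uncertain.

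Of 10 small proteoglycans that bind fibrils, 5 rose and 0 fell (median difference 0.36): Dcn (2.52-fold), Ogn (1.70-fold), Prelp (1.68-fold), Bgn (1.61-fold) and Lum (at least 2.47-fold, a bound for the same reason as Lair1). Groups overlapped for Ogn. Fmod, Kera, Aspn, Podn and Omd did not pass, and Kera was dim, above 7.3% of the negative controls in control kidneys. Of 21 measured basement membrane partners, 3 rose, 2 fell and 16 did not pass (median difference 0.06). Both lists stand beside 5.36% higher and 2.67% lower over all genes. Nid1, which links laminin to type IV collagen, measured 9.33, 9.52, 9.49, 9.28 and 9.03 in controls and 10.07, 10.20, 10.24, 9.93 and 9.46 in knockouts (1.57-fold, SE 0.14 in log2 units, limma adjusted p = 0.0120), with knockout 5 inside the control range. Frem1, of the epithelial basement membrane, rose 1.64-fold (adjusted p = 0.00562). The laminin chain gene Lama2 differed by 0.52 (adjusted p = 0.0363), a call lost in 8 of 10 fits that left out 1 kidney (adjusted p = 0.0573 to 0.0934 without any of controls 1, 3, 4 and 5 or knockouts 1 to 4). Fras1, a partner of Frem1, fell by 0.35 (adjusted p = 0.0121) and Tinag, a tubular basement membrane protein, by 0.23 (adjusted p = 0.0204). Perlecan (Hspg2, 0.32, adjusted p = 0.0907) and peroxidasin (Pxdn, 0.24, adjusted p = 0.0718), which crosslinks type IV collagen, did not pass. Without knockout 5, 5 partners were called higher.

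**Figure D5:**
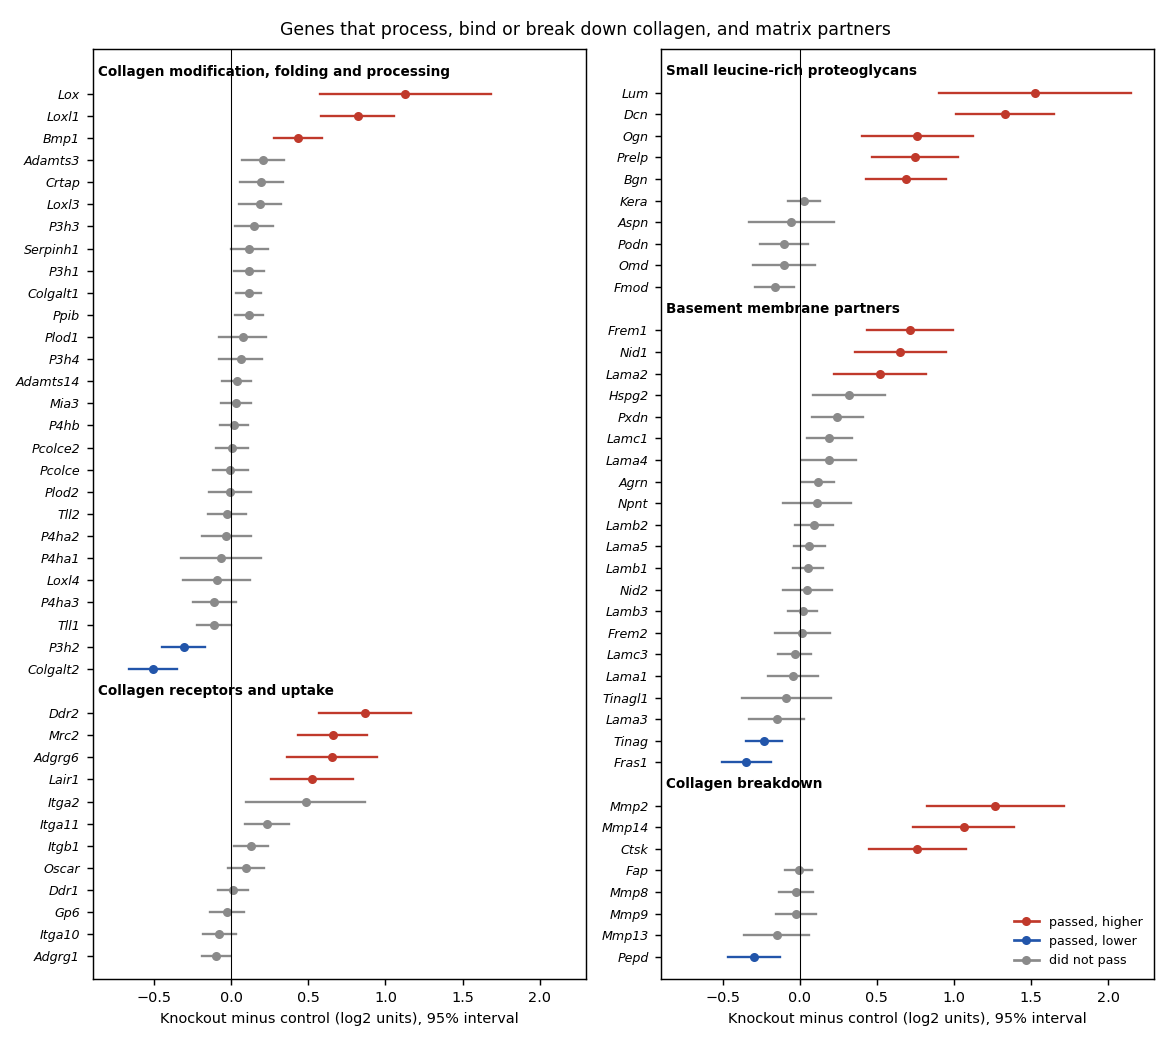
Difference between knockout and control kidneys (log2 units, horizontal axis) for genes that modify, bind, coat or break down collagen and for basement membrane partners, 1 gene per line. Points and lines are fitted differences with 95% intervals, coloured as passed and higher (red), passed and lower (blue) or not passed (grey). Lum (1.52), Dcn (1.33) and Mmp2 (1.27) lie farthest to the right and Colgalt2 (-0.51) farthest to the left.

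Some marker genes of other cell types also changed. Counts in all these marker lists stand beside 5.36% higher and 2.67% lower over all genes. Each list is short, and no set test was made. Of 8 measured fibroblast and pericyte markers, 3 rose, led by Mfap5 (0.98) and Pdgfrb (0.47), and the mean of the list was 6.60 to 6.73 in controls and 6.75 to 6.98 in knockouts. Mfap5 was dim in control kidneys, above 55.2% of the negative controls. Thy1 (0.10), Clec3b (0.09), Pi16 (0.04), Gli1 (0.03) and Cspg4 (-0.03) did not pass, and Pdgfra was not measured apart. Of 6 smooth muscle and myofibroblast markers, 3 rose, led by Tagln (0.43) and Des (0.32), with means of 7.95 to 8.25 and 8.20 to 8.50. Acta2 (0.30), Cnn1 (0.16) and Myh11 (0.04) did not pass. All 8 macrophage markers rose, led by C1qb (1.27) and Cd68 (1.03), with means of 6.69 to 6.92 and 7.17 to 7.80. In knockouts 1 to 5 that mean was 7.76, 7.68, 7.80, 7.35 and 7.17, with knockouts 4 and 5 lowest. The fibroblast and pericyte mean had the same 2 lowest (6.95, 6.98, 6.97, 6.82 and 6.75). The smooth muscle mean did not (8.31, 8.50, 8.28, 8.20 and 8.48), with knockouts 3 and 4 lowest. These orders were not tested.

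Of 5 urothelium markers, 4 rose, led by Upk1b (1.39) and Upk1a (0.65), with means of 6.57 to 7.42 and 7.40 to 7.86. In knockouts 1 to 5 the urothelium mean was 7.40, 7.86, 7.60, 7.55 and 7.77, with knockouts 1 and 4 lowest. The call of Upk1a was lost in 8 of 10 fits that left out 1 kidney (adjusted p = 0.0599 to 0.106 without any of controls 1, 2, 3 and 5 or knockouts 2 to 5). Of 7 endothelial markers limma called 0 (1 at an unadjusted p under 0.05, Kdr, -0.18, which passed after quantile normalisation and without knockout 2), with means of 9.34 to 9.62 and 9.32 to 9.70. Of 7 tubule markers, 1 rose (Aqp2, 0.94) and 3 fell, led by Umod (-0.45), beside 5.36% higher and 2.67% lower over all genes. Tubule means were 12.23 to 12.38 in controls and 12.20 to 12.34 in knockouts. Adipocyte (4 genes), mesothelium (3) and Schwann cell (1) markers gave 0 calls by limma and 0 at an unadjusted p under 0.05. Over all genes the shares were again 8.03% and 23%. Lep differed by -0.13, Lrrn4 by -0.07 and Sox10 by -0.02. Lep and Lrrn4 were dim, above 36.2% and 45.9% of the negative controls in control kidneys, so their differences say little of these cells. The called markers on the fibroblast, smooth muscle and myofibroblast, macrophage and urothelium lists changed in the same direction as the 12 collagen genes. So did the tubule marker Aqp2, whereas the other called tubule markers fell. The part of these cell types in the result was not tested.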

How the data were processed

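RNA of 10 whole kidneys, 500 ng each, was measured on Affymetrix whole-transcript arrays, 5 control and 5 knockout. The authors deposited 1 log2 value for each transcript cluster and array, produced with RMA and tied to build mm10, per the submitters' processing notes. The log2 scale was read from the range of the values. The sources used here give no software version or filter. RMA averages probes along a transcript, so isoforms were not measured apart. Of 72688 rows, 30604 had a single symbol, 2146 several and 39938 none. Symbols of 833 rows were updated through Entrez identifiers, and rows that shared a symbol were averaged. Collagen rows with several symbols (Col7a1 with Mir711, Col6a4 with Dvwa) were left out. Arrays hold no read counts, so their number limits the precision.

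Groups were compared with limma 3.58.1 in R 4.3.3 (lmFit, eBayes with trend, two-sided, Benjamini-Hochberg over 30140 genes, threshold 0.05). Where the lower group's mean was at or below the median of the negative controls, a fold is a bound. The fit was tested on simulated data with independent noise for each gene and array. Such data hold none of the patterns that genes shared over arrays. Coordinates and promoter windows are from RefSeq tables of GRCm38.p6. Plots used Python 3.11.15, pandas 2.3.3 and matplotlib 3.10.9.

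Collagen genes, classes, gene lists and alternatives were chosen with earlier results of these data known. Values in all arrays were given for Stk11, for type IV genes, for called fibrillar and other collagens, and for the 3 collagens without a call that had the smallest p. From each pathway list up to 4 called genes with the largest differences were named, and from each cell type list up to 2, or the gene with the smallest p where none passed. Other genes of these lists are named for their function, chosen after their values were seen. Kidneys came from separate mice, and p-values measure the spread between them. Alternatives were quantile and median scaling, a filter on dim genes, the brightest row per gene, no trend, the replicate number as a block, array weights and leaving out each kidney. The median of the negative controls as a covariate was added after the data were seen.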

Additional observations from a re-analysis of the deposited data

Results flagged for a closer look

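Among 158 groups of 5 values (collagen genes and named genes, controls and knockouts apart), 3 held a value far from the other 4 by Dixon's criterion, where chance flags about 1 in 20 groups. Col19a1 in knockout 2 was 5.26, with the next knockout at 5.38. Col24a1 in knockout 2 was 5.93, with the next knockout at 6.04. The podocyte gene Nphs1 in knockout 5 was 7.51, with the next knockout at 7.29. The collagen values are those of genes without a call, and knockout 2 had the highest median of the negative controls among the knockouts (5.31). The part of that median in these values was not tested.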

How the results depend on the processing

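The 12 collagen genes called higher were called in each of 18 alternative fits, and Col4a4 was called lower in each. The count of higher collagen genes was 12 to 14, with Col5a1 or Col6a3 as the additions. The count of lower collagen genes rose to 2, with Col4a3, after quantile normalisation and with array weights, and was 1 to 2 when 1 kidney was left out. Genes of collagen modification called higher numbered 7 with array weights and 2 to 5 without 1 kidney. Basement membrane partners called higher numbered 6 with the replicate block, 5 with array weights and 2 to 5 without 1 kidney. The count of all genes called, knockout against control, was 2420, and 1527 to 3412 without 1 kidney, the lowest without knockout 2 and the highest without knockout 5. Higher genes made up 66.7% of the calls, and 55.5% (1619 higher, 1298 lower) after quantile normalisation. Sox10, which has no call, ranged from -0.0603 to 0.0145 without 1 kidney and was above 0 without control 1 (0.0098) or knockout 2 (0.0145).

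The labels state no pairing by replicate number. Deviations of same-numbered kidneys correlated at -0.08 to 0.31, over 0.1 in 4 of 5 pairs, and 3 of 5 controls correlated best with their own number, a hint from the data and not from the design. With the replicate number as a block, 1826 genes were higher and 955 lower, with 14 collagen genes higher (Col5a1 and Col6a3 added) and 1 lower. Genes near the negative controls have uncertain differences.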

Other observations

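The 2 collagen rows with several symbols were not in the comparisons. The row of Col7a1, the anchoring fibril collagen, shared with Mir711, measured 7.21, 6.97, 7.32, 7.09 and 7.16 in controls 1 to 5 and 7.20, 7.01, 7.18, 7.11 and 7.02 in knockouts 1 to 5. The row of Col6a4, shared with Dvwa, measured 6.15, 5.88, 6.20, 6.04 and 6.09 in controls and 6.13, 5.94, 5.99, 6.04 and 5.97 in knockouts. Both ranges of knockouts lay inside those of the controls.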
